A study of Mus musculus with 2 samples.

Results

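Platelet glycoproteins and megakaryocyte receptors are the surface proteins with which a platelet recognises a damaged vessel, together with the plasma and granule protein that several of them bind. The genes followed here were Gp1ba, Gp1bb, Gp5, Gp9, Gp6, Itga2b, Vwf, Treml1 and Clec1b, and every probe that the array's annotation assigns to one of these 9 symbols was taken. Of the 9 genes, 8 had a probe, with 11 probes in all, out of 19057 genes named on the array. Gp1ba had no probe assigned to it and its expression was not analysed here.

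Total RNA came from the tibia of female C57BL/6 mice aged 22 weeks, and RNA of 3 mice was mixed for each of 2 Illumina bead arrays, which carry short probes on beads. The TERC+/+ pool carried the normal telomerase RNA gene, and the TERC-/- pool came from mice without it that the series labels as G3. No treatment was given to either group. With 1 array per genotype there is no replicate, so no error, p-value or test can be given for any difference, the number of arrays limits every value, and the spread between mice is hidden by the pooling. The Terc probe itself was at a raw intensity of 112 on both arrays and was above background on neither, so it does not check the genotype labels. The median raw intensity was 127 on the TERC+/+ array and 138 on the TERC-/- array, and 36.7% and 33.9% of the 45281 probes were detected, which here means a detection p under 0.01.

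Megakaryocytes are the large marrow cells that shed platelets, and the tibia holds them inside its marrow. On platelets, GPIb alpha, GPIb beta, GPIX and GPV form 1 receptor complex that catches von Willebrand factor on exposed collagen and slows the platelet under flow. GPVI then signals from collagen, CLEC-2 signals from podoplanin, and both signals switch integrin alpha IIb beta 3 to the form that binds fibrinogen and links platelets to each other. Transcription factors of the GATA and ETS families are known to drive these genes in megakaryocytes.

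All 8 measured genes were lower in the TERC-/- pool, by between 2.20-fold for Itga2b and 3.28-fold for Gp6. Of these 8 genes, 8 were at least 2-fold lower and 0 at least 2-fold higher, against 8.81% lower and 6.86% higher among the 9953 genes detected on at least 1 array. Since all 8 were detected on both arrays, the shares among the 8781 genes detected on both, 8.95% lower and 7.29% higher, are given too. The median log2 difference of the 8 genes was -1.39, or 2.61-fold lower, beside 0.01 over all detected genes. The middle part of all detected genes ran from -0.45 (25th percentile) to 0.42 (75th percentile). A difference is always the normalized log2 value of TERC-/- minus that of TERC+/+, after background correction, and 2-fold is a rule of size. In counts and shares of genes, those detected on 1 array only stand at a bound, defined below, no larger in size than their difference. In whole bone, fewer megakaryocytes and platelets and less of a transcript in each of them cannot be told apart.

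**Figure D1:**
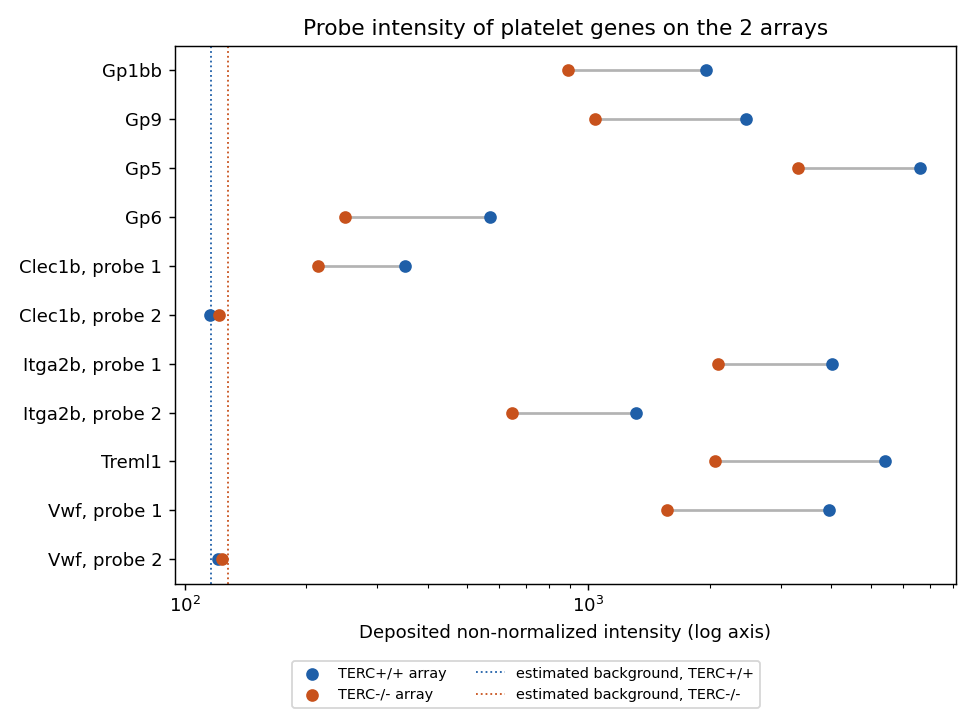
Deposited non-normalized intensity (x axis, log scale) of each of the 11 probes (y axis) on the TERC+/+ array (blue) and the TERC-/- array (orange), with the estimated background of each array as a dotted line. For the 9 probes above background the orange point lies left of the blue one, and the second probes of Clec1b and Vwf lie at background on both arrays; intensities of different probes are not comparable with each other.

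The GPIb-IX-V complex was measured through 3 of its 4 chains. Gp1bb, the beta chain that is disulphide-linked to GPIb alpha, had a raw intensity of 1957 in TERC+/+ and 890 in TERC-/-. Its normalized log2 values were 10.92 and 9.59, a difference of -1.33 or 2.51-fold. Gp9, the small chain needed to bring the complex to the surface, had raw intensities of 2459 and 1041, and its log2 difference was -1.45. Gp5, the chain that thrombin cleaves from the platelet surface, was at 6629 and 3309, with log2 values of 12.73 and 11.57 and a difference of -1.16. The 3 chains thus lay between 2.23-fold and 2.73-fold lower, and no detection p was above 0 for any of them, meaning that no negative control was as bright.

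Gp1bb overlaps Septin5, a septin gene, in the RefSeq gene table, and signal of the overlapping transcripts cannot be told apart where a probe lies in both. The probes assigned to Septin5, looked up after the values of Gp1bb were seen, went the other way. They were at 455 and 236 in TERC+/+ and at 1292 and 687 in TERC-/-, with log2 differences of 1.70 and 2.13. Clec1b overlaps Clec12b, a C-type lectin gene, whose probe was above background on neither array.

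Gp6 encodes GPVI, the collagen receptor that signals through the Fc receptor gamma chain. Its raw intensity was 571 in TERC+/+ and 250 in TERC-/-, 4.91 and 1.95 times the estimated mean background of each array. The log2 values were 8.87 and 7.16, a difference of -1.71. With genes detected on 1 array only at their bound, 2.49% of all detected genes had a lower difference. As a dim probe it depended on the background step: its difference was -1.20 without background correction.

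Clec1b encodes CLEC-2, the podoplanin receptor of platelets. It had 2 probes designed on the same transcript. One was at 352 in TERC+/+ and 214 in TERC-/-, with log2 values of 7.95 and 6.73 and a difference of -1.22, or 2.34-fold. The other was at 116 and 122 with detection p-values of 0.42 and 0.68, above background on neither array. The detected probe stood at 1.67 times the mean background in TERC-/-. Clec1b was not 2-fold lower without background correction, where the difference was -0.74, in the deposited normalized values (-0.75) or when both probes were averaged (-0.66).

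Itga2b encodes integrin alpha IIb, the chain that pairs with integrin beta 3 and an early marker of the megakaryocyte lineage. Both of its probes were detected on both arrays. The brighter was at 4005 in TERC+/+ and 2095 in TERC-/- and the other at 1316 and 645. Their log2 differences were -1.13 and -1.25. The 2 probes differed by little, which compares probes on the same 2 pools and not mice. When the arrays were scaled to a common median in place of quantile normalization, Itga2b was at -0.93 and Gp5 at -0.98, both short of 2-fold.

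Treml1 encodes TLT-1, a receptor stored in platelet alpha granules and moved to the surface on activation. Its raw intensity was 5419 in TERC+/+ and 2064 in TERC-/-, the widest raw ratio among the 9 detected probes at 2.63. The log2 values were 12.47 and 10.88, a difference of -1.59 or 3.02-fold. Treml1 and Gp6 were the only members at least 3-fold lower, a size that 3.06% of all detected genes reached in that direction.

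Vwf encodes von Willebrand factor, the ligand of GPIb alpha, which megakaryocytes and endothelial cells both make. Its detected probe was at 3947 in TERC+/+ and 1568 in TERC-/-, with log2 values of 12.01 and 10.46 and a difference of -1.55, or 2.94-fold. A second probe, designed on another transcript record, was at 121 and 124 and above background on neither array, and averaging both probes gave -0.85. Of 17 detected endothelial markers, 0 were at least 2-fold lower and 0 at least 2-fold higher, with a median of -0.40 and a range from -0.97 to 0.48. The largest differences of the 17 were those of Esam, at -0.97, and Ptprb, at -0.66. Cdh5, the endothelial cadherin chosen after its value was seen, had the smallest, at -0.03. The share of the Vwf signal that came from endothelium was not tested.

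**Figure D2:**
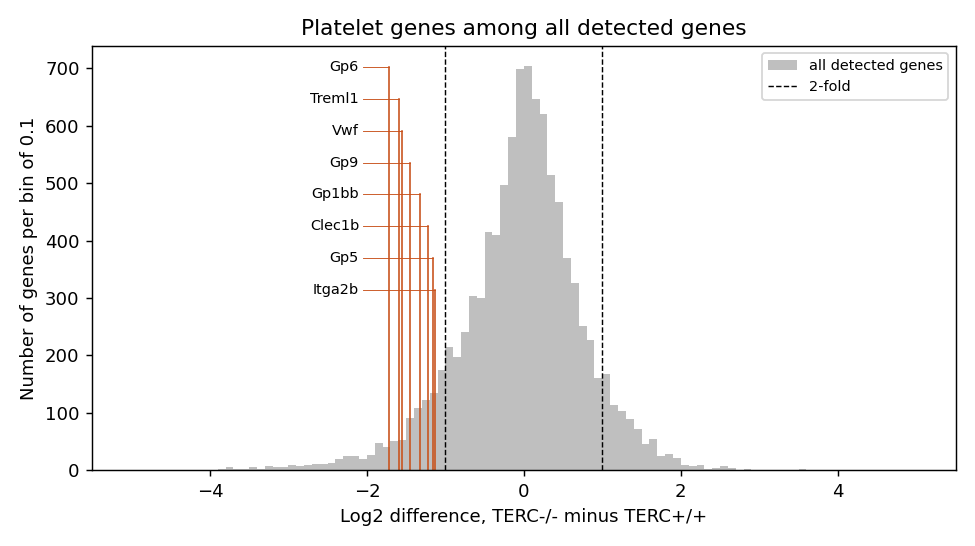
Number of detected genes (y axis) by log2 difference between TERC-/- and TERC+/+ (x axis, bins of 0.1), with the 8 measured platelet genes as orange lines and 2-fold as dashed lines. The 8 lines lie together between -1.71 and -1.13, left of the dashed line at 2-fold lower.

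The 8 differences spanned 0.58 on the log2 scale. In order from the lowest they were Gp6, Treml1, Vwf, Gp9, Gp1bb, Clec1b, Gp5 and Itga2b, but without replicates no neighbours in this order can be said to differ. Each member lay in the lower tail of all genes, where between 2.49% (Gp6) and 6.88% (Itga2b) of the 9953 detected genes had a lower difference. These shares hold genes detected on 1 array only at their bound, and by plain differences they would be as high or higher. The 5th percentile of the plain differences was -1.40. The raw intensities, with no correction or scaling, had TERC+/+ over TERC-/- ratios from 1.64 (Clec1b) to 2.63 over the 9 detected probes.

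**Figure D3:**
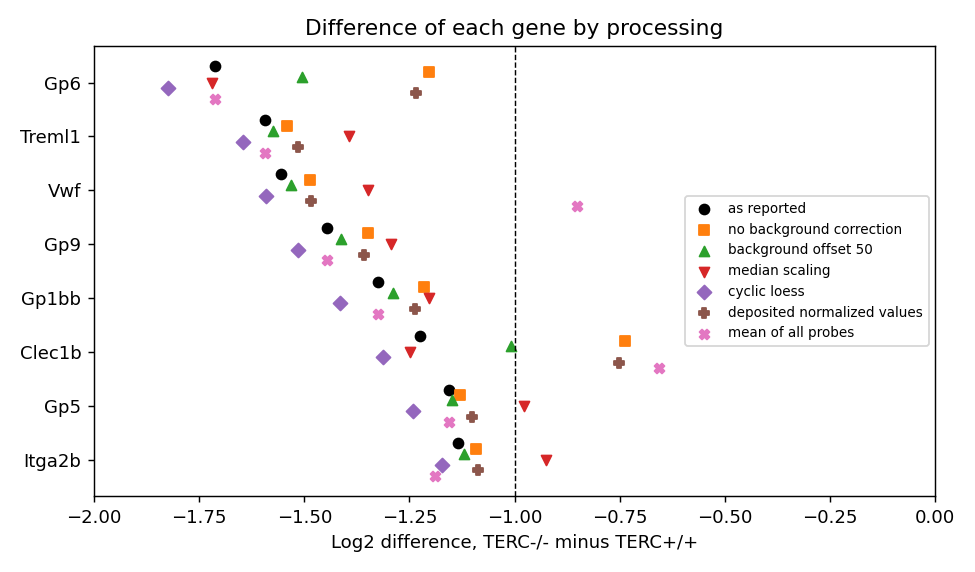
Log2 difference between TERC-/- and TERC+/+ (x axis) of each of the 8 genes (y axis) as reported and under 6 other ways of processing, with 2-fold lower as a dashed line. All points lie left of 0, and points right of the dashed line belong to Clec1b, Vwf, Gp5 and Itga2b.

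The promoters of these genes are given here because the 8 measured members were lower together. The RefSeq promoter table (build GRCm38.p6, 250 bases before to 50 after each start) held 8 of the 9 genes, all but Vwf. GATA letters (AGATAA or TGATAA, both strands) were found in 4 of the 8, namely Gp1ba, Gp5, Gp6 and Clec1b, and in 18.6% of all 32851 promoters of this length. ETS letters (AGGAAG or CGGAAG, both strands) were found in 5 of the 8, namely Gp1ba, Gp1bb, Gp5, Gp9 and Itga2b, and in 46.5% of all promoters. Gp1ba, whose expression was not measured, is in both counts, so neither count covers only genes seen to be lower. No matches of the members overlapped each other. Such a match is a description of letters and not a site shown to be bound. The 4 sequences below were chosen to show both kinds (Gp5, chr16:30310732-30311031, minus strand), GATA letters alone in the gene with the largest difference (Gp6, chr7:4397695-4397994, minus strand), ETS letters alone (Gp9, chr6:87777820-87778119, plus strand) and neither (Treml1, chr17:48359666-48359965, plus strand). They are written 5′ to 3′ along the gene, with the matches in capitals.
Gp5: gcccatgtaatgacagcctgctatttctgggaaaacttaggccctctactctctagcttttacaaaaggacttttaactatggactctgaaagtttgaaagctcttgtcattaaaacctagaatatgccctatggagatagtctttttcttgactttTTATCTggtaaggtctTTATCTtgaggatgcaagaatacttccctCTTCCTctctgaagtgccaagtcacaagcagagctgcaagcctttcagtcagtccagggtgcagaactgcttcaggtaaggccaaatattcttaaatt
Gp6: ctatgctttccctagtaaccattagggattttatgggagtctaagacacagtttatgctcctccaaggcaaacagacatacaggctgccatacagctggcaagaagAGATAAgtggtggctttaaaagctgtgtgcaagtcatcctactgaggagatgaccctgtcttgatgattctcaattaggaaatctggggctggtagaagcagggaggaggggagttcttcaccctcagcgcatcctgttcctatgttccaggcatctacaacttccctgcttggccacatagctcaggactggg
Gp9: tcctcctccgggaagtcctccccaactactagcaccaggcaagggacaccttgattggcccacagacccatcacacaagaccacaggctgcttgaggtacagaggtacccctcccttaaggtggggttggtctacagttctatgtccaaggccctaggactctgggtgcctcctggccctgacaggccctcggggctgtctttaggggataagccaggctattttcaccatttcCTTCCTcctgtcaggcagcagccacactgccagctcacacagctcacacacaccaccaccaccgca
Treml1: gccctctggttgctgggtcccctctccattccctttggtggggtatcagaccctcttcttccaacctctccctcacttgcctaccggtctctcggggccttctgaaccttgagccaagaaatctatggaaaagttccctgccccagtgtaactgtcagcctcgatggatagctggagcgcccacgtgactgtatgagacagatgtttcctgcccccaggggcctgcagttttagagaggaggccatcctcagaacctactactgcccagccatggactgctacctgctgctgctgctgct
Counted from the start of the gene, and taking the first base along the gene, Gp5 had GATA letters at -93 and -77 and ETS letters at -48, all on the opposite strand. Gp6 had GATA letters at -144 on its own strand. In Gp9 the ETS letters stood at -16, and Gp1ba also had ETS letters at -16. Treml1, which held neither, differed by -1.59, and Gp6, which held GATA letters only, by -1.71. Whether the letters bear on the size of any difference was not tested.

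The rest of the platelet lineage held genes on both sides. A further 85 genes with a probe were listed by role, of which 78 were detected. Of these 78, 18 (23.1%) were at least 2-fold lower and 5 (6.41%) at least 2-fold higher, with a median of -0.41, beside the 8.81% and 6.86% of all detected genes. The same 2 shares stand beside the counts of each list that follows. Genes above background on 1 array only were counted at their bound, the bright value over either the dim value or the weakest signal still detected on that dim array, whichever was higher, while medians take the normalized values.

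Direct partners of the receptors were mostly within 2-fold. Of 9 detected partners and downstream proteins, 7 were counted within 2-fold, 1 was lower, 1 was higher, and the median was 0.31. Itga2, detected on the TERC+/+ array alone, is among the 7 at its bound. Single genes past 2-fold on each side are near the 8.81% lower and 6.86% higher of all detected genes. Lat, the adaptor that GPVI and CLEC-2 signals reach, was at -1.18, while the kinase Syk was at 1.10. The Syk probe was dim, with raw intensities of 180 in TERC+/+ and 270 in TERC-/-. Fcer1g, the Fc receptor gamma chain that pairs with GPVI, was at 0.58, with raw intensities of 12789 in TERC+/+ and 21709 in TERC-/-. Many myeloid cells also make Fcer1g and Syk, and 15 detected neutrophil markers had a median of 0.84 with 6 at least 2-fold higher, whose part in these values was not tested. Itgb3, the partner of integrin alpha IIb, narrowly missed detection on both arrays. Its raw intensities were 146 in TERC+/+ and 165 in TERC-/-, with detection p-values of 0.021 and 0.015, too dim for a difference to be read. Pdpn, the ligand of CLEC-2, was at -0.79 and F8, the clotting factor carried by von Willebrand factor, at -0.99. Adamts13, the protease that cuts von Willebrand factor, did not pass detection on either array, its brightest probe having detection p-values of 0.026 and 0.029. Itga2, a collagen-binding integrin chain, passed detection on the TERC+/+ array alone and was lower in TERC-/- by at least 1.90-fold after background correction, from raw intensities of 217 and 162.

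Of 9 detected receptors for platelet agonists and inhibitors, 1 was at least 2-fold lower and 1 at least 2-fold higher, with a median of -0.51. Both counts are near the 8.81% lower and 6.86% higher of all detected genes. F2rl2, the thrombin receptor PAR3 of mouse platelets, was at -1.22. F2rl3, the signalling thrombin receptor PAR4, was at -0.83 and F2r, the thrombin receptor PAR1 of human platelets, at -0.66. Ptgir, the receptor for prostacyclin, which restrains platelets, was at 1.07, from dim raw intensities of 226 in TERC+/+ and 362 in TERC-/-. Of 8 other detected surface proteins, 2 were at least 2-fold lower and 0 higher, with a median of -0.39. Mpig6b, the inhibitory receptor G6b-B of megakaryocytes, was at -1.33, near the median of the glycoproteins. Cd226, an adhesion receptor that lymphocytes also carry, passed detection on the TERC+/+ array alone and was lower by at least 2.12-fold after background correction, from raw intensities of 229 and 152. Esam, an adhesion molecule of platelets and endothelium, was at -0.97 and the tetraspanin Cd9 at -0.40.

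Among granule contents, 5 of 12 detected genes were at least 2-fold lower and 1 at least 2-fold higher, with a median of -0.89. Mmrn1, the carrier of factor V in alpha granules, was at -1.83, and Ppbp, a chemokine that platelets store in bulk, at -1.51, with its other probe at -1.45. Thbs1, thrombospondin 1, was at -1.26. Sparc, at -1.57, is also a major protein of bone matrix, and all 8 detected osteoblast markers were at least 2-fold lower in the same comparison. The part of bone cells in the Sparc value was not tested. The further gene past 2-fold on the lower side was Pdgfa, a chain of platelet-derived growth factor, at -1.01, and the 1 on the higher side was Srgn, a granule proteoglycan shared with other blood cells, at 1.15. Both were chosen after their values were seen, as was Pf4, platelet factor 4, which was at -0.90 and short of 2-fold.

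Of 14 detected signalling proteins and enzymes, 4 were at least 2-fold lower and 0 higher, with a median of -0.43. Gucy1a1, a chain of the nitric oxide receptor, was at -1.44, although its 3 dimmer probes ranged from -1.15 to -0.39. Of those 3, only the probe at -0.39 was detected on both arrays. Alox12, platelet 12-lipoxygenase, was at -1.37, Prkcq, a protein kinase C that T cells also use, at -1.14 and Tbxas1, thromboxane synthase, at -1.08. Dimmer probes of Alox12 were at -1.38 and -0.51, both detected in TERC+/+ only. Those of Tbxas1 were at -1.40, detected in TERC+/+ only, and at -0.75, detected on both arrays. Of 11 detected genes of the cytoskeleton and of granule formation, 2 were at least 2-fold lower and 1 higher, with a median of 0.05. Tubb1, the tubulin of the platelet's marginal band, was at -1.41, with a dimmer probe, detected in TERC+/+ only, at -0.84. Another Tubb1 probe missed detection on both arrays, with detection p-values of 0.037 and 0.040. Myl9, a myosin light chain, was at -1.12. Slc35d3, which platelet dense granules require, was at -0.95, and Flna, the actin crosslinker filamin A found in most cells, was at 1.12.

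Of 15 detected transcription factors, 11 were counted within 2-fold, 3 were at least 2-fold lower and 1 at least 2-fold higher. The median was -0.39, and Mafk, detected on the TERC+/+ array alone, is among the 11 at its bound. All detected genes gave 8.81% lower and 6.86% higher, so the 1 higher factor is near the share of all genes. Gata1 was at -2.35, with raw intensities of 477 in TERC+/+ and 182 in TERC-/-, and a dimmer probe, detected in TERC+/+ only, at -0.79. Gfi1b was at -2.20, with its other probe at -2.31, and Tal1 at -2.08. These 3 factors serve red-cell precursors as well as megakaryocytes. All 17 detected erythroid markers were at least 2-fold lower in the same comparison, with a median of -2.99. Their summed raw intensities, background included, were 113882 and 21552. The part of red-cell precursors in the values of the 3 factors was not tested. Mrtfa, a coactivator of the serum response factor, was at 1.07. Its probe was dim, with raw intensities of 151 in TERC+/+ and 211 in TERC-/-. Fli1, an ETS factor of megakaryocytes, was at -0.13, Runx1, a factor of blood-cell development, at -0.42 and Nfe2, the factor of platelet release, at 0.18, all 3 chosen after their values were seen. Of the same list, Etv6 was at 0.83, Meis1 at -0.78 and Gata2 at -0.54, also chosen afterwards.

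**Figure D4:**
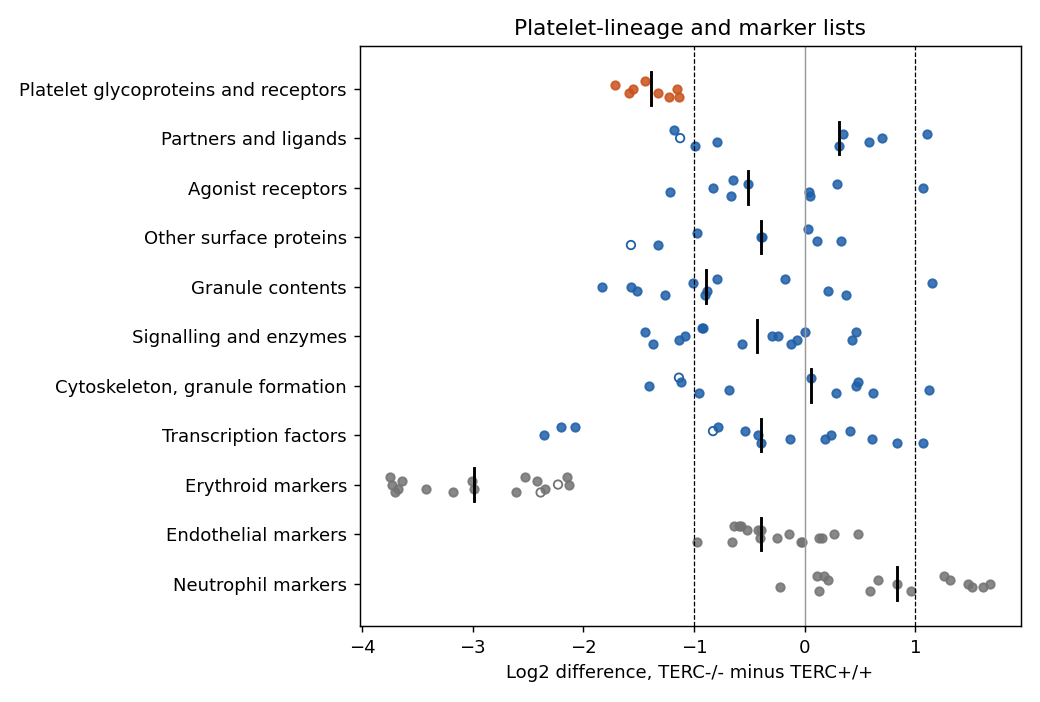
Log2 difference between TERC-/- and TERC+/+ (x axis) of each detected gene of the platelet-lineage lists and of 3 marker lists (y axis), with list medians as black bars, 2-fold as dashed lines and genes above background on 1 array only as open points. The glycoproteins and receptors (orange) all lie left of 2-fold lower, the erythroid markers lie further left (median -2.99), and the endothelial markers lie between the dashed lines.

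Markers of the other cells in the tibia lay on both sides, and their part in the platelet values was not tested. Summed raw intensities over detected genes were 25338 in TERC+/+ and 11432 in TERC-/- for the platelet glycoproteins and receptors. Such sums add uncorrected intensities of different probes, background included, and do not measure amounts of cells. The corresponding sums were 15354 and 13006 for endothelial markers and 299501 and 465824 for neutrophil markers. Of 8 detected B-lymphocyte markers 7 were at least 2-fold lower (median -1.83), led by Vpreb3, which acts in pre-B-cell receptor assembly, at -3.11, with sums of 7854 and 2573. The 8 osteoblast markers had a median of -2.12, led by Bglap, osteocalcin, at -3.82, with sums of 82988 and 13431, and 3 of 11 muscle markers were at least 2-fold lower (median -0.93), led by Mb, myoglobin, at -2.98, with sums of 106516 and 56143. The 10 monocyte and macrophage markers split, with 3 at least 2-fold higher, 2 at least 2-fold lower and sums of 13811 and 10416. No marker list was without detected genes on either array, but Kdr, Flt4 and Sele of the endothelial list, Epb42 of the erythroid list, Pax5 and Rag2 of the B-lymphocyte list and Dmp1 and Sost of the bone list were above background on neither array.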

How the data were processed

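The authors deposited non-normalized intensities with a detection p-value per probe and array, per the file headers, and a second table of normalized intensities whose method is not given in the sources used here. Detection p-values move in steps of 1 over 936, and no intensity lay below 88.7, so the values were not background-subtracted. Background was estimated from the detection p-values, with means of 116 (TERC+/+) and 128 (TERC-/-) and SDs of 13.1 and 12.2, and corrected by normexp (nec of limma 3.58.1, R 4.3.3, offset 16). Arrays were then quantile normalized and log2 was taken. Probes with 1 gene symbol in the platform annotation (34885 of 45281) were kept, and 34807 of them matched the GRCm38.p6 gene table by Entrez identifier. A gene took its brightest probe and entered when a probe was detected (p under 0.01) on at least 1 array. Arrays were grouped by the genotype label. The members, gene lists and settings were chosen with earlier results of these data known. Named genes are all members, their direct partners and up to 4 genes of each list with the largest difference, 1 or 2 of a marker list; others are said to have been chosen afterwards. The gene table was tested on simulated data. Alternatives changed the background step, normalization, detection filter, probe rule and threshold. Figures were drawn with matplotlib 3.10.9.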

Additional observations from a re-analysis of the deposited data

How the results depend on the processing

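No difference of a member changed sign under the alternatives of background, normalization and probe rule, and no member was 2-fold higher. The detection filters left the member values as they were, and the 2 other fold thresholds bear on counts only. The member median stayed between -1.47 and -1.21: it was -1.21 without background correction, -1.27 with median scaling, -1.24 in the deposited normalized values and -1.26 with the mean of all probes. The number of members at least 2-fold lower was 6 with median scaling (where 8.4% of all genes were) and with the mean of all probes (5.82%), 7 without background correction (4.89%) and in the deposited values (5.08%), and 2 at a 3-fold threshold (3.06%). Among the other platelet-lineage genes, the count lower was 18 as reported, where 8.81% of all genes were lower. It was 12 without background correction (4.89%) and with the mean of all probes (5.82%), and 13 in the deposited values (5.08%). With an offset of 50 it was 14 (6.93%), and with cyclic loess 23 (10.2%), so the share of all genes shifted too. The count higher, 5 as reported (6.86% of all genes), was 2 without background correction (3.58%), with an offset of 50 (5.02%) and in the deposited values (3.64%). At 1.5-fold 33 of the 78 were lower and 9 higher, where 17.0% of all detected genes were lower and 17.0% higher. At 3-fold 4 were lower and 0 higher, beside 3.06% and 1.76% of all detected genes. Fewer are counted at a larger fold by construction, and the cause of the other shifts was not tested. A shift of the median by over 0.1 was counted as a move, since no replicate spread exists. Dim probes such as those of Clec1b, Gp6, Mrtfa, Syk and Ptgir are limited by background. No paired analysis was possible because each genotype has 1 array, and for the same reason no array could be left out.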
